A study of Mus musculus with 18 samples.

Results

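The genes described here encode the nuclear subunits of the mitochondrial respiratory chain and ATP synthase, measured in G9a knockout and wild-type mouse T cells. G9a, the product of Ehmt2, is an enzyme that methylates lysine 9 of histone H3. The genes were chosen by symbol (Nduf, Cox4 to Cox8, Atp5, Uqcr and Sdh genes, with Cycs and Cyc1), which gave 87 of the 23234 symbols of the RNA table: 35 of complex I, 4 of complex II, 9 of complex III, 20 of complex IV, 15 of complex V, cytochrome c, and 3 (Cox4nb, Atp5s and Atp5sl) that match the symbols without being core subunits. The symbols, not measured values, define the set, though the set itself was proposed with earlier results of these data known. RNA came from C57BL/6 T cells, taken from spleen and lymph nodes, that had proliferated for 4 weeks where lymphocytes were scarce, in 3 groups: G9a knockout cells with CD4 and CD8 (KO DP, n = 4), G9a knockout cells with CD8 and no CD4 (KO SP, n = 2) and G9a wild-type cells with CD8 and no CD4 (WT SP, n = 4). H3K9 trimethylation (H3K9me3), a mark of silent chromatin, was mapped in separate CD8 T cells cultured with antibodies to CD3 and CD28, with 2 Ehmt2-/- and 2 Ehmt2+/+ peak lists. The labels give neither the promoter that drove the deletion nor whether each sample is a different animal; the p-values therefore reflect differences among these samples, possibly technical ones.

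Complexes I to IV pass electrons to oxygen; complexes I, III and IV pump protons across the inner mitochondrial membrane as they do so, and complex V uses the proton gradient to make ATP. Complex II is also an enzyme of the tricarboxylic acid cycle, and cytochrome c carries electrons between complexes III and IV. T cells draw on this machinery when they are activated and when they persist as memory cells.

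Ehmt2 itself had 17.9, 20.2, 17.2 and 15.6 scaled FPKM in KO DP, with KO SP at 10.3 and 11.8 and WT SP at 17.0, 38.2, 23.8 and 19.6, where scaled FPKM is the deposited value divided by a size factor of the library. KO DP and WT SP overlapped, and Ehmt2 was not called in either knockout group against WT SP (limma, adjusted p = 0.245 for KO DP and 0.299 for KO SP); reads outside a deleted part would not check the label. Cd4 averaged 120 scaled FPKM in KO DP, 0.174 in KO SP and 0.305 in WT SP. Deposited FPKM summed to less in KO DP replicates 3 and 4 (size factors 0.744 and 0.468) than in the other libraries (at least 1.07), and read depth is unknown. The submitters' sample titles fall into 2 ranges of numbers: 34 to 37 (KO DP and WT SP replicates 1 and 2) and 738 to 741 (KO DP and WT SP replicates 3 and 4, and both KO SP libraries). What the ranges stand for is not given in the sources used here.

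Respiratory chain genes were among the abundant transcripts of these cells. Of the 87 genes, 61 had a mean scaled FPKM at or above the 90th percentile of the 11162 genes tested, which was 68.1. All 87 together made up 2.73% ± 0.263 of all FPKM in KO DP (SD, n = 4), 2.64% ± 0.103 in KO SP (n = 2) and 2.56% ± 0.215 in WT SP (n = 4), and the ranges of the 3 groups overlapped. By mean level over all libraries, the highest member was Atp5b, the catalytic beta subunit of ATP synthase, at 534 ± 97.8 scaled FPKM in KO DP, 696 ± 43.7 in KO SP and 528 ± 44.2 in WT SP (SD). The median over members of a complex was 87.0 scaled FPKM in complex I, 123 in complex II, 142 in complex III, 131 in complex IV and 179 in complex V, while Cycs, the somatic cytochrome c, averaged 28.5. Many of these genes have processed pseudogenes, and how the authors assigned reads shared with them is not given, so the values of single subunits are uncertain to that extent.

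The marker genes of the module were all present. Sdha, the flavoprotein of complex II that oxidises succinate, had 124, 115, 166 and 121 scaled FPKM in KO DP, 193 and 188 in KO SP, against 120, 101, 172 and 162 in WT SP. Cox5a, a nuclear subunit of cytochrome c oxidase, had 163, 225, 218 and 156 in KO DP, 180 and 146 in KO SP, against 203, 233, 132 and 156 in WT SP. KO DP and WT SP overlapped for both genes, and both KO SP libraries lay above all others for Sdha. Cycs had 18.3, 25.3, 32.0 and 27.9 in KO DP, 32.5 and 33.1 in KO SP, against 24.3, 22.7, 31.2 and 37.9 in WT SP. For Cycs the KO SP libraries lay within the WT SP range and above all KO DP libraries, and KO DP and WT SP overlapped.

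**Figure D1:**
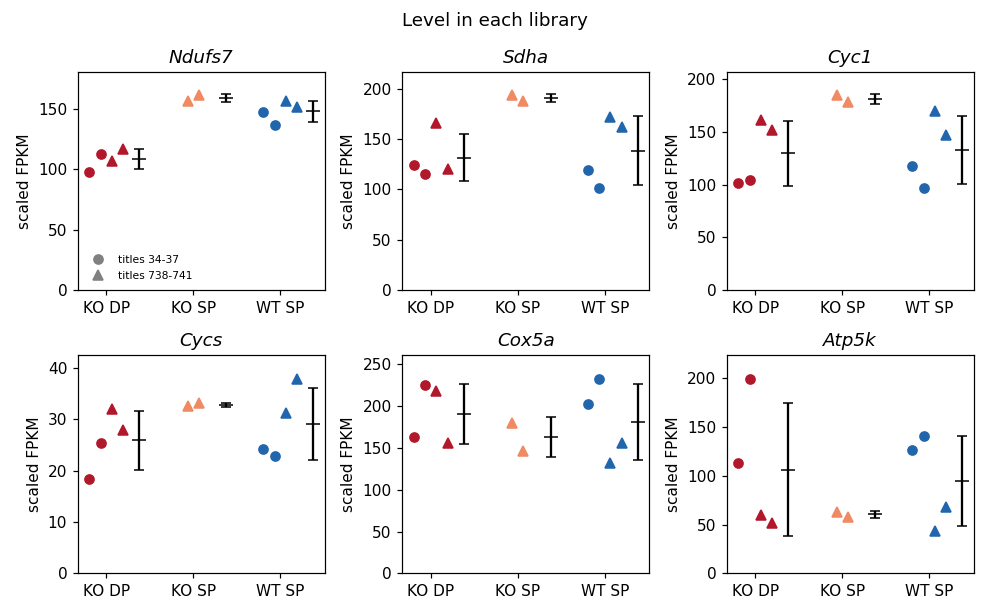
Level of 6 respiratory chain genes in each library, in scaled FPKM on a linear axis starting at 0, by group; circles are titles 34 to 37, triangles titles 738 to 741, and the bar beside each group is its mean with SD. Ndufs7 is below every KO SP and WT SP library in all 4 KO DP libraries, while Sdha, Cyc1, Cycs and Atp5k separate circles from triangles within KO DP and WT SP, apart from the KO DP libraries of Sdha, which lie at 115 to 124 and at 121 to 166.

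The sequences before the start sites of 3 members are shown as examples: Ndufs7 was called between groups, Sdha marks complex II, and Atp5k differed most between the title ranges. A link between these sequences and the levels was not tested. Each run covers 250 bases before to 50 after the annotated start, 5′ to 3′ on the gene's strand, from RefSeq on GRCm38.p6, and capitals mark matches to the motifs described next. The Ndufs7 run is chr10:80249199-80249498 (plus strand), that of Sdha chr13:74350191-74350490 (minus strand) and that of Atp5k chr5:108434350-108434649 (minus strand).
Ndufs7: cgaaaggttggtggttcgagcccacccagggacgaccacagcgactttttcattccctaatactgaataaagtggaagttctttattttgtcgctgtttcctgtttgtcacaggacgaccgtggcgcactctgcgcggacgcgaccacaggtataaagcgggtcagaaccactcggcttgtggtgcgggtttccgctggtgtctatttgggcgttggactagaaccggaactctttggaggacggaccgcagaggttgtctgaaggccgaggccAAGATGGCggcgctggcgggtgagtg
Sdha: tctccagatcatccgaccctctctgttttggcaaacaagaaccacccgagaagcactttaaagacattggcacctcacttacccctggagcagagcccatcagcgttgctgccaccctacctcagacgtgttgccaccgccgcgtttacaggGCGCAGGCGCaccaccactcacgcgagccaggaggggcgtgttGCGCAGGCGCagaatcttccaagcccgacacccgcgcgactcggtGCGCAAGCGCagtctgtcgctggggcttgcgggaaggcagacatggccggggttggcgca
Atp5k: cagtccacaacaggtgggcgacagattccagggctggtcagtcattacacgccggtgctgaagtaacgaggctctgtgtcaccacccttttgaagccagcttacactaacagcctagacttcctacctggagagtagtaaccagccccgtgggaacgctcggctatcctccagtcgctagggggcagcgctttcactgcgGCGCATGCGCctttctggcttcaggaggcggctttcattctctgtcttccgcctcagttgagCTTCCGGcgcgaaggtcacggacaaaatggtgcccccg

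Promoters of 70 of the 87 genes matched the RefSeq table, 4 symbols of the 87 being looked up by their current name. On either strand, a 10-letter NRF1 motif with 1 free position, marked in Sdha and Atp5k, occurred in 17 of the 70 (24.3%), against 5.19% of all 27025 symbols with a promoter. The GABP letters CCGGAAG occurred in 16 (22.9%, against 9.93%), the YY1 letters AAGATGGC in 11 (15.7%, against 3.19%) and the ERR letters TNAAGGTCA in 3 (4.29%, against 1.43%). NRF1, GABP, YY1 and ERR are transcription factors known for controlling nuclear genes of mitochondria. In the promoters shown, Ndufs7 holds the YY1 letters 24 to 31 bases after its start, Sdha holds the NRF1 letters at 3 positions, and Atp5k holds NRF1 and GABP letters. None of the 4 motifs occurred in 32 of the 70 promoters, and the promoters of the markers Cycs and Cox5a held none. A match is only a run of letters.

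Between KO DP and WT SP cells, 1 of the respiratory chain genes tested was called. Of the 87 genes, 82 passed the filter of a mean of 0.5 FPKM; Cox6a2, Cox8b and Ndufa4l2 were listed at 0 in every library, and Cox4i2 and Cox8c lay below the filter. None of the 82 was called higher and 1, Ndufs7, was called lower (limma, adjusted p under 0.05 over all genes tested; 3 at an unadjusted p under 0.05, or 3.66%, against 31.9% of all genes), where 18% of all genes tested were called, 9.2% higher and 8.82% lower. The median log2 difference of the 82 was 0.01, against -0.04 over all genes tested. For 80 of the 82 the estimate lay within 0.5 of 0 on the log2 scale, against 68.6% of all genes, and for 38 the whole 95% interval did.

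Ndufs7 encodes a core subunit of complex I that holds its last iron-sulfur cluster before ubiquinone. It had 97.4, 113, 107 and 117 scaled FPKM in KO DP, 157 and 161 in KO SP, against 148, 137, 157 and 152 in WT SP. Every KO DP library lay below every library of the other groups. The log2 difference of KO DP from WT SP was -0.45 ± 0.096 (SE; 95% interval -0.66 to -0.24; adjusted p = 0.0128, limma), and that of KO DP from KO SP was -0.55 ± 0.117 (adjusted p = 0.0269). Within the title ranges, KO DP against WT SP gave -0.41 in 34 to 37 (adjusted p = 0.261) and -0.50 in 738 to 741 (adjusted p = 0.0267). Without KO DP replicates 3 and 4, whose FPKM sums were low, it gave -0.49 (adjusted p = 0.0494), and without scaling the values it was not called (-0.85, adjusted p = 0.0987, where the median of all genes was -0.38). The KO DP against KO SP call was lost without KO DP replicate 1, 2 or 3 or either KO SP library, with adjusted p of 0.0548 to 0.228. With the replicate number as a block, Ndufs7 was the 1 member called in KO DP against WT SP (adjusted p = 0.0224), where 8.89% of all genes were called higher and 11.1% lower. In RefSeq's gene table a tRNA gene overlaps the span of Ndufs7.

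Ndufs1 and Ndufv1, core subunits that carry the electron path of complex I, were not called in KO DP against WT SP. Among the accessory subunits, which surround the core, Ndufb9 had a log2 difference of 0.28 ± 0.110 and Ndufa6 of -0.40 ± 0.182 (adjusted p = 0.114 and 0.161). Complex I had a median log2 difference of 0.00 over 35 genes, complex II 0.00 over 4, complex III 0.03 over 9, complex IV 0.11 over 15 and complex V -0.02 over 15. Atp5sl, matched by symbol only, had -0.44 ± 0.154 (adjusted p = 0.0780). With the title range as a term in the fit, Ndufa6 and Atp5sl joined Ndufs7 among the genes called lower (adjusted p = 0.0340 for Ndufa6 and 0.0359 for Atp5sl).

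**Figure D2:**
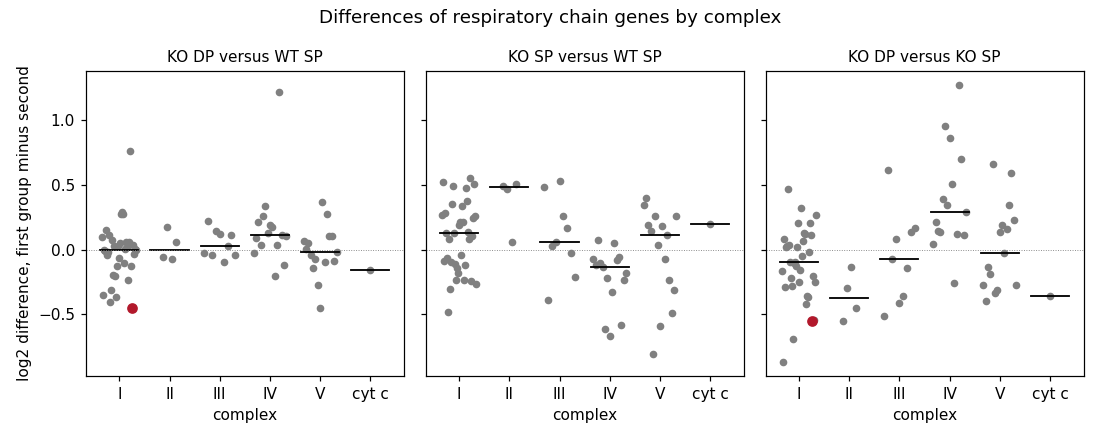
Log2 difference of each tested respiratory chain gene (points) by complex in the 3 comparisons, first-named group minus the second, with the median of each complex as a line; red points are called at an adjusted p under 0.05. Ndufs7 is the red point at -0.45 in KO DP versus WT SP and -0.55 in KO DP versus KO SP, and complex II has medians of 0.48 in KO SP versus WT SP and -0.37 in KO DP versus KO SP.

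KO SP cells, set against WT SP cells of the same sort, had no respiratory chain gene called in either direction, where 0.179% of all genes were called, 0.134% higher and 0.0448% lower. At an unadjusted p under 0.05 there were 5 of 82 (Ndufa8, Ndufa9, Ndufv1, Sdhd and Uqcrc1), all with positive log2 differences; that is 6.10%, against 13.3% of all genes tested. Sdhd, a membrane anchor of complex II, had 145 and 115 scaled FPKM in KO SP, against 84.3, 82.7, 92.0 and 105 in WT SP, without overlap, with a log2 difference of 0.51 ± 0.154 (adjusted p = 0.356). Uqcrc1, a core protein of complex III, had 272 and 247 in KO SP, against 165, 155, 207 and 196 in WT SP, with 0.53 ± 0.170 (adjusted p = 0.363). By complex, the median log2 difference was 0.48 in complex II, 0.13 in complex I, 0.06 in complex III, -0.13 in complex IV and 0.11 in complex V. All KO SP libraries carry titles of 738 to 741, and WT SP libraries of both ranges enter the comparison; within 738 to 741 the median of the 82 genes was 0.18, against 0.06 over all WT SP libraries, and that of complex IV turned to 0.14. With the description number as a replicate block, 8 genes were called higher and 6 lower, where 4.17% of all genes were called higher and 8.47% lower, but that block sets KO SP titles 738 and 739 beside titles 34 to 37 of the other groups.

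KO DP against KO SP, the pair of knockout phenotypes, gave no gene called higher and Ndufs7 called lower, where 5.91% of all genes were called, 2.44% higher and 3.48% lower. This comparison shares the KO DP libraries with the first and the KO SP libraries with the second. Ndufa9, an accessory subunit of complex I, had 81.8, 83.5, 103 and 82.0 scaled FPKM in KO DP, against 161 and 123 in KO SP, with a log2 difference of -0.69 ± 0.178 (adjusted p = 0.0540). All 4 genes of complex II had negative differences (median -0.37) and 14 of 15 of complex IV positive ones (median 0.29), none of them called. KO SP libraries are all of titles 738 to 741; within those titles, 9 of 15 of complex IV were positive (median 0.10) and all 4 of complex II stayed negative (median -0.40). The block on description numbers, with the same mismatch of titles, gave 12 genes higher and 13 lower, where 11.2% of all genes were called higher and 12.4% lower. In the 4 libraries of titles 738 and 739, with the title number as a block, Ndufa9 (-0.74), Ndufa10 (-0.69) and Ndufs7 (-0.63) were called lower and Cox7b2 (2.19) higher (adjusted p = 0.0267, 0.0359, 0.0330 and 0.0199), where 7.98% of all genes were called higher and 11.4% lower.

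Tissue-restricted isoforms were low, at most 6.75 scaled FPKM in any library. Cox7b2, a testis form of a complex IV subunit, had 0.312, 0.0966, 3.53 and 6.75 scaled FPKM in KO DP, 0 and 0.218 in KO SP, against 0, 0.123, 0.553 and 0 in WT SP. Its values above 1 were those of KO DP replicates 3 and 4, the libraries with low FPKM sums, whose mean over 1118 olfactory receptor genes was 0.149 and 0.227 FPKM, against at most 0.0210 elsewhere; the part of these libraries in the Cox7b2 value was not tested. It was called in titles 738 to 741 alone (log2 difference 2.15, adjusted p = 0.00533) and not over all libraries (1.21 ± 0.570, adjusted p = 0.175). Cox4i2, a form known from lung, reached at most 1.39, Cox8c 1.15, Cox7a1, a heart and muscle form, 2.22, and Cox6b2, a testis form, 3.58. Of the widely expressed partners, Cox4i1, Cox6a1, Cox6b1 and Cox8a averaged above 200 in every group. Cox7b averaged 69.1 in KO DP, 62.9 in KO SP and 67.1 in WT SP, and Cox7a2 averaged 103 in KO DP, 70.8 in KO SP and 92.3 in WT SP.

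The c subunit of ATP synthase, which forms the rotating ring, is made from 3 genes whose mature proteins are alike. Atp5g3 had 287, 438, 421 and 300 scaled FPKM in KO DP, 319 and 305 in KO SP, against 346, 338, 235 and 210 in WT SP. These levels overlapped and Atp5g3 was not called (0.36 ± 0.209, adjusted p = 0.260). As a share of the sum of Atp5g1, Atp5g2 and Atp5g3, which needs no scaling between libraries, Atp5g3 made up 65.3%, 68.6%, 72.9% and 69.8% in KO DP, 65.8% and 62.9% in KO SP, against 56.5%, 57.8%, 59.7% and 55.4% in WT SP. Every KO DP share lay above every WT SP share, in both title ranges. The mean share was 69.2% ± 3.12 in KO DP and 57.4% ± 1.84 in WT SP (SD, n = 4 each), a difference of 11.8 percentage points (exact two-sided permutation test, p = 0.0286, the smallest that 4 against 4 allows; 0.0429 adjusted over the 3 genes). Atp5g2 made up 13.8% ± 1.77 in KO DP and 20.4% ± 3.87 in WT SP (exact permutation p = 0.0286, adjusted 0.0429), and Atp5g1 17.1% ± 2.07 in KO DP and 22.3% ± 3.50 in WT SP (exact permutation p = 0.0857). An exact permutation test only within the title ranges gave p = 0.0556 for Atp5g3 and for Atp5g2, and an exact permutation test only within same-numbered pairs gave p = 0.125 for each. Both are the smallest p that these exact two-sided permutation tests can give, so neither can pass 0.05; the difference had the same sign in 4 of 4 pairs for both genes. The shares were chosen for testing after their values were seen, and shares of a sum are not independent of each other.

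**Figure D3:**
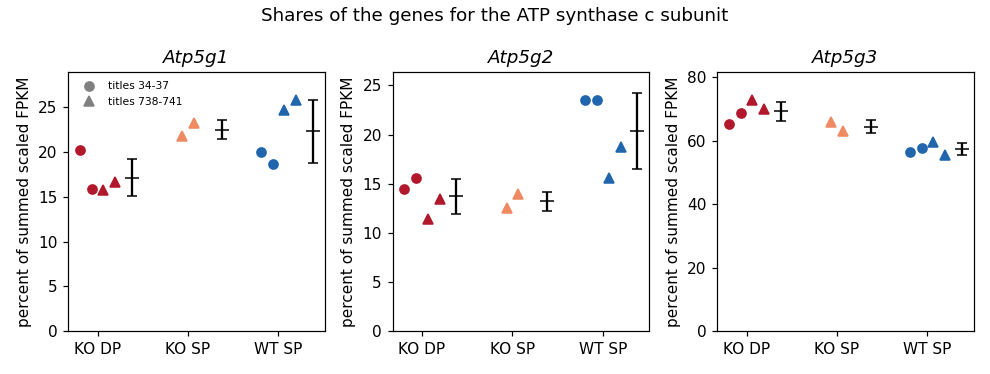
Share of each of the 3 genes for the ATP synthase c subunit in their summed scaled FPKM, in percent on an axis from 0, per library, with mean and SD beside each group; circles are titles 34 to 37 and triangles 738 to 741. Atp5g3 lies at 65.3% to 72.9% in KO DP and at 55.4% to 59.7% in WT SP.

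Respiratory chain genes were lower or higher in many cases between the title ranges. With group as a term in the fit, an addition made after the data were seen, 30 of 82 genes were called in titles 738 to 741 against 34 to 37, 5 higher and 25 lower, where 18.5% of all genes tested were called, 7.36% higher and 11.1% lower. The median log2 difference of the 82 genes was -0.25, against 0.00 over all genes. Leaving out 1 library gave 3 to 6 higher and 10 to 29 lower, with 10 lower without KO DP replicate 2, 11 without WT SP replicate 3, 14 without KO DP replicate 4, and 16 without WT SP replicate 1 or 2; 3 were higher without KO DP replicate 1 or WT SP replicate 2 or 4. Other gene lists of mitochondria, described below, had positive medians in the main fit of this comparison. These were 0.25 for the tricarboxylic acid cycle and 0.24 for carriers and coenzyme Q. Assembly lists had 0.24 (complex I) and 0.22 (complexes II to V), and biogenesis regulators 0.05. Genes named from this comparison were picked by their values.

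The most negative differences were in complex V and complex IV. Atp5k, the e subunit of ATP synthase, had 59.7 and 52.1 scaled FPKM in KO DP of titles 738 to 741, against 113 and 200 in KO DP of titles 34 to 37. In WT SP it had 43.8 and 67.8 in 738 to 741, against 127 and 141 in 34 to 37, and the KO SP libraries had 63.3 and 57.7. The ranges did not overlap, with a log2 difference of -1.35 ± 0.192 (limma, adjusted p = 0.00505). Atp5e, the epsilon subunit, gave -1.32 ± 0.172, Cox6c -0.88 ± 0.147, Cox7c -0.82 ± 0.114 and Ndufb4 -0.74 ± 0.124. All 11 widely expressed subunits of complex IV had negative differences, 7 of them called, and so did 24 of 28 accessory subunits of complex I, 11 of them called.

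The genes called higher were Ndufa10 (0.61 ± 0.129), Cyc1 (0.58 ± 0.091), Cycs (0.49 ± 0.118), Ndufs1 (0.48 ± 0.096) and Atp5f1 (0.38 ± 0.0995). Cyc1, the cytochrome c1 of complex III, had 161 and 152 scaled FPKM in KO DP of titles 738 to 741, against 102 and 105 in KO DP of titles 34 to 37, and in WT SP 169 and 147 in 738 to 741, against 117 and 96.8 in 34 to 37. All 7 core subunits of complex I had positive differences (median 0.25), where 1, Ndufs1, was called. The core subunits of complex I made up 0.124% to 0.158% of all FPKM in titles 738 to 741 and 0.106% to 0.116% in titles 34 to 37, and complex IV 0.465% to 0.583% in 738 to 741 and 0.633% to 0.775% in 34 to 37, without overlap.

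**Figure D4:**
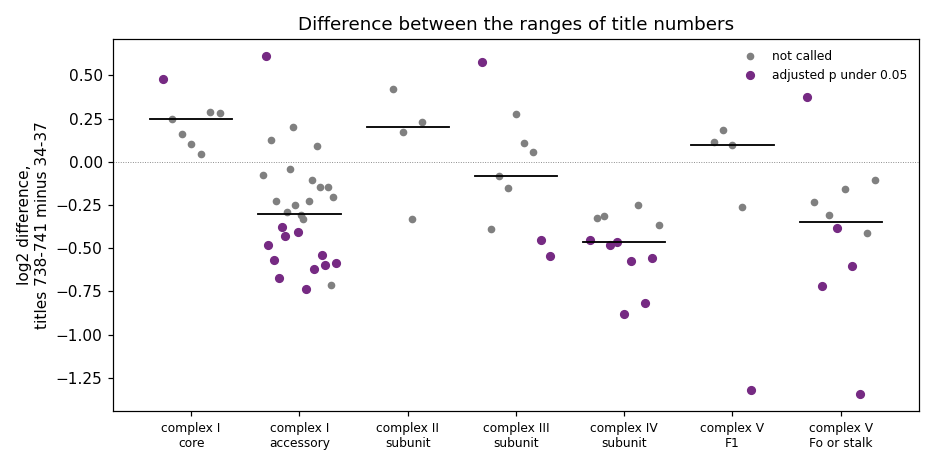
Log2 difference between libraries of titles 738 to 741 and of titles 34 to 37 for the tested subunits (points), by complex and class, with the median of each class as a line; purple points are called at an adjusted p under 0.05. Complex I core subunits are all above 0 and the widely expressed complex IV subunits all below, and Atp5k (-1.35) and Atp5e (-1.32) are lowest.

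Markers of other cells moved with the title range. Summed erythroid markers came to 1.77 to 46.9 scaled FPKM in titles 738 to 741 and 439 to 1038 in titles 34 to 37, with 4 of 5 tested called lower and Hbb-b1 listed at 0 in all 6 libraries of 738 to 741. Summed myeloid markers came to 12.7 to 36.5 in 738 to 741 and 62.2 to 178 in 34 to 37, with 8 of 10 called lower and S100a8 listed at 0 in the 6 libraries of 738 to 741. Summed T cell markers came to 3518 to 5080 in 738 to 741 and 4264 to 4724 in 34 to 37, and B cell markers, none of 5 called, to 30.0 to 90.9 in 738 to 741 and 14.3 to 48.1 in 34 to 37. The part of these cells in the subunit differences was not tested, and in bulk RNA fewer cells of a type and less RNA per cell cannot be told apart. The effect of KO DP against WT SP differed between the ranges in none of the 82 genes (limma interaction, adjusted p under 0.05; 1 at an unadjusted p under 0.05, Cox7b2), where 0.323% of all genes did.

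Of 21 tested regulators of mitochondrial biogenesis, 1 was higher (4.76%) and 4 were lower (19.0%) in KO DP than in WT SP, where 9.2% of all genes tested were higher and 8.82% lower. Myc, a transcription factor that drives growth, had 24.0, 17.6, 11.7 and 16.4 scaled FPKM in KO DP, 59.5 and 64.9 in KO SP, against 94.0, 50.8, 101 and 95.5 in WT SP, with every KO DP library below the rest (log2 difference from WT SP -2.22 ± 0.253, limma, adjusted p = 0.000563). Pprc1 (-1.31 ± 0.318) and Ppargc1b (-1.05 ± 0.278), coactivators related to PGC-1alpha, and Lrpprc (-0.61 ± 0.177), which stabilises mitochondrial messenger RNA, were lower as well. Gabpb1, a subunit of GABP, was higher (0.43 ± 0.126). Median log2 difference was -0.21 over the list, against -0.04 over all genes. The genes named from this list and from the lists of the next paragraph were picked by their values.

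The list of assembly factors of complexes II to V had 18 tested genes, among them Atpif1, the inhibitor of ATP synthase, which is not an assembly factor. Atpif1 was higher with 121 ± 15.0 scaled FPKM in KO DP, 67.1 ± 8.85 in KO SP and 73.3 ± 18.6 in WT SP (log2 difference from WT SP 0.74 ± 0.185, limma, adjusted p = 0.0235). Bcs1l, which inserts the Rieske protein into complex III, was lower, with 3.92 ± 0.435 in KO DP, 8.47 ± 0.175 in KO SP and 7.34 ± 1.07 in WT SP (-0.76 ± 0.136, adjusted p = 0.00589). The list of complex I assembly factors had 11 tested genes, among them the accessory subunit Ndufab1. In it Ndufaf2 was higher (0.64 ± 0.193, limma, adjusted p = 0.0462) and Ndufaf4 lower (-0.70 ± 0.209, adjusted p = 0.0450). Genes called made up 5.56% of the list for complexes II to V in each direction and 9.09% of that for complex I. Of all genes tested, 9.2% were called higher and 8.82% lower. In the tricarboxylic acid cycle, 2 of 21 were lower, Idh2 (-0.99 ± 0.270) and Suclg2 (-0.53 ± 0.124), and among carriers and coenzyme Q genes 2 of 21, Coq2 (-0.73 ± 0.136) and Coq9 (-0.52 ± 0.130); 2 of 21 is 9.52%, near the 8.82% of all genes called lower. No gene of these lists was called in KO SP against WT SP, where 0.179% of all genes were. Against KO SP, KO DP was lower in Bcs1l (1 of 18 tested, 5.56%), Myc (1 of 21, 4.76%) and Coq2 (1 of 21, 4.76%). In the tricarboxylic acid cycle Idh2, Suclg1 and Suclg2 were lower (3 of 21, 14.3%), and 0 of 11 genes of the complex I assembly list were. None was higher, where 3.48% of all genes tested were lower and 2.44% higher. The 13 subunits encoded by mitochondrial DNA could not be analysed, because the symbols looked up for them matched no row of the RNA table.

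H3K9me3 peaks lay near a minority of respiratory chain genes in the cultured CD8 T cells. Within 5 kb of the start site, 6 and 7 of the 87 genes had a peak in the Ehmt2-/- lists (6.90% and 8.05%) and 9 and 6 in the Ehmt2+/+ lists (10.3% and 6.90%), where 12.8% and 15.9% of all symbols did in the Ehmt2-/- lists and 16.3% and 7.29% in the Ehmt2+/+ lists. In Ehmt2+/+ replicate 2 the share of these genes was near that of all symbols. With each list cut to its 23304 highest-scoring peaks, the shares were 4.60% and 2.30% in Ehmt2-/-, against 4.94% and 3.65% of all symbols. In Ehmt2+/+ they were 6.90% and 6.90%, against 7.51% and 7.29%. At equal list length these genes were thus near all symbols. The lists differ in length, with 111149 and 154997 peaks in Ehmt2-/- and 85960 and 23304 in Ehmt2+/+, so counts of different lists are not compared. In all, 74 genes, among them Ndufs7, Sdha and Cycs, had no peak in any list (85.1%, against 74.8% of all symbols). Atp5f1, the b subunit of the ATP synthase stalk, and Cox6a1 had a peak in all 4. The Cox6a1 peaks were not all at 1 site. The peak of Ehmt2+/+ replicate 2 was centred -6 bases from its start site. Those of the other lists were centred at -2600 (Ehmt2+/+) and at -2703 and -2718 (Ehmt2-/-). The Atp5f1 peaks were centred -501 and -444 bases from its start site in Ehmt2-/- and -509 and -467 in Ehmt2+/+, at chromosome 3, 105763417 to 105763917 in Ehmt2-/- replicate 1 and 105763360 to 105763990 in Ehmt2+/+ replicate 1 (mm9, annotated as promoter), with the authors' peak scores of 18.4 in that Ehmt2-/- list and 24.3 in that Ehmt2+/+ list, on a scale that is not given. RNA of Atp5f1 averaged 134 scaled FPKM over the 10 libraries. Cox7b2 and Cox8c, which averaged 1.16 and 0.223 scaled FPKM over the 10 libraries, had a peak in both Ehmt2-/- lists and in Ehmt2+/+ replicate 1. The Cox7b2 peaks were not all at 1 site. They were centred at -57 bases in Ehmt2+/+ replicate 1 and at 146 and -2926 in Ehmt2-/- replicate 1. That of Ehmt2-/- replicate 2 was at -2947, with a score of 5.13, rank 154281 of its 154997 peaks. Cox6b2, which averaged 1.29 scaled FPKM, had a peak in both Ehmt2+/+ lists and in neither Ehmt2-/- list.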

How the data were processed

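RNA was measured in 10 libraries and H3K9me3 in 4 peak lists. Low-input SMART-Seq v4 amplification and Nextera tagmentation, per the labels' protocols, keep no strand, so reads of overlapping genes (28 of the 87 in RefSeq's table) are not separable. RNA was deposited by the authors as FPKM; the submitters' processing notes name TopHat, Cufflinks and mm9. Peaks carry a score deposited by the authors, and the notes name Bowtie, HOMER and mm9. Versions, annotation and thresholds: not given in the sources used here. FPKM holds no counts, so depth is unknown and no counting interval was computed.

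Lines repeating a symbol (466, of 250 symbols) were summed. Values were divided by median-ratio size factors over 11742 genes above 0 in all libraries, and tested as log2(scaled FPKM + 1) with limma 3.58.1 in R 4.3.3 (mean-variance trend, all 10 libraries sharing 1 spread with 7 residual degrees of freedom, Benjamini-Hochberg over the 11162 genes averaging 0.5 FPKM or more, threshold 0.05). The added 1 understates changes of low genes. The fit was tested on simulated data. Title ranges and the shares of Atp5g genes were tested as additions after the data were seen. The members and gene lists were chosen with earlier results of these data known. Named genes were those of the module's markers, those with the smallest p per complex and comparison, the highest of each complex, and isoform families. From each gene list, genes with the smallest p in KO DP against WT SP were named. Genes outside these rules, among them Gabpb1, Suclg1, Atp5sl, Ndufs1 and Ndufv1, were named with their values known.

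KO DP and WT SP share description numbers 1 to 4. Deviations from the group means of same-numbered libraries correlated at 0.151, 0.305, 0.101 and 0.135, each above 0.1. Same-numbered libraries also share a title range. Different-numbered libraries of the same range correlated at 0.183 (KO DP replicate 2 with WT SP replicate 1) and 0.0743 (1 with 2). In the other range they correlated at 0.268 (4 with 3) and 0.198 (3 with 4). These correlations therefore cannot tell pairing by number from a shared title range. The numbers served as pairs only in the replicate block and the permutation within same-numbered pairs, not in the main fit. KO SP numbers 1 and 2 are titles 738 and 739, while numbers 1 and 2 of the other groups are titles 34 to 37.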

Additional observations from a re-analysis of the deposited data

Results flagged for a closer look

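Among the named genes, 77 groups of 4 libraries were looked at for a library far from the others by Dixon's test, and 5 stood apart; chance alone flags about 1 in 20 groups. In KO DP, replicate 3 stood high for Ndufa9 (103 scaled FPKM) and Uqcrc1 (240), and replicate 2 stood high for Cox6b2 (3.58) and Cox7b (87.5). In WT SP, replicate 1 stood high for Cox8c (0.159), where the other 3 libraries were listed at 0. With 3 libraries at 0 the test flags any value above 0, so this flag carries no information.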

How the results depend on the processing

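The counts below are of the tested respiratory chain genes alone. Shares of all genes called are given above for the main fits and the blocks, not for the other settings. A change of count is therefore not read as particular to these genes. In KO DP against WT SP, the count called lower was 1. It was 0 without scaling and in titles 34 to 37, 3 with the title range as a term, and 1 to 2 leaving out each library. The count called higher was 0, and 1 in titles 738 to 741. The median was -0.38 without scaling, equal to the median of all genes. The replicate block changed no call of a gene's level in this comparison; the Atp5g3 and Atp5g2 shares did not pass 0.05 by exact permutation within same-numbered pairs (p = 0.125) or within title ranges (p = 0.0556), designs that cannot pass it. In KO SP against WT SP, the replicate block on description numbers gave 8 higher and 6 lower, against 0 and 0; in that fit KO SP numbers 1 and 2 share a block with titles 34 to 37. The median was 0.18 in titles 738 to 741.

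In KO DP against KO SP, the count lower was 1, and 0 without scaling, with upper-quartile scaling and with KO DP replicates 1 and 2 only, and 0 to 2 leaving out each library. The description-number block gave 12 higher and 13 lower, and the title-number block 1 higher and 3 lower; titles 738 to 741 gave 1 higher. The median was -0.02, against 0.00 over all genes. It was -0.53 without scaling, 0.11 with the description block, -0.15 with the title range as a term and 0.10 with KO DP replicates 1 and 2. In titles 738 to 741 it was -0.17, and with the title-number block -0.26. Without scaling, the size factors (1.17, 1.17, 0.744 and 0.468 in KO DP, 1.22 and 1.16 in KO SP) enter every gene alike, so -0.53 is not particular to these genes.

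Between title ranges, 5 were higher and 25 lower. Without scaling 1 was higher, and without a filter 15 were lower. WT SP alone gave 0 higher and 1 lower, and KO DP alone 1 and 1, with fewer libraries. Leaving out each library gave 3 to 6 higher and 10 to 29 lower, the fewest lower without KO DP replicate 2 (10), WT SP replicate 3 (11) and KO DP replicate 4 (14). All 30 kept their sign in these settings, except 1 without scaling. The causes were not tested.

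Members with an H3K9me3 peak within 1 kb numbered 2 and 1 in Ehmt2-/- (2.3% and 1.1%). In Ehmt2+/+ they numbered 3 and 2 (3.4% and 2.3%). Of all symbols, 2.4% and 3.4% had such a peak in Ehmt2-/-, and 5.2% and 1.6% in Ehmt2+/+. Within 10 kb, Ehmt2-/- replicate 1 had 12 (13.8%, against 22.2% of all symbols). The 23304 highest-scoring peaks of Ehmt2-/- replicate 2 gave 2 within 5 kb (2.30%, against 3.65%).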
